A study of Mus musculus with 4 samples.

Results

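The stretch described here is the 1 Mb of mouse chromosome 14 from base 69000001 to base 70000000 (mm10) that holds Slc25a37, with the accessible regions that 4 ATAC-Seq libraries placed in it. In ATAC-Seq a transposase cuts open DNA, and stretches rich in cut ends are called as peaks. Peaks of the 4 lists that overlapped by at least 1 bp were merged, and merged stretches held by at least 2 libraries were kept as union regions. The window held 127 of the 137553 union regions of the autosomes and X. A region was assigned to Slc25a37, Entpd4, Loxl2, Stc1, Chmp7, R3hcc1 or Tnfrsf10b when it lay in the gene body or within 5000 bp of either end, otherwise to another gene by the same rule, and otherwise to intergenic space. Of the 127 regions, 48 lay at the 7 listed genes, 67 at other genes and 12 in intergenic space.

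The study asked how loss of Cpt1a, which encodes the enzyme that passes long-chain fatty acids to the mitochondria for oxidation, affects blood stem cells and their open chromatin. The control libraries 1 and 2 came from adult Cpt1a fl/fl mice, labelled WT, and the KO libraries 1 and 2 from Cpt1a Δ/Δ mice, in which Vav1-Cre deletes the floxed gene. Vav1-Cre is active throughout the blood system, so the deletion was not limited to stem cells. The mice were of both sexes on a C57BL/6 background, and the cells were sorted from bone marrow enriched for c-Kit. The labels call the cells long-term HSCs and the study calls them HSPCs. How many animals stood behind each library is not given in the sources used here, so the spread between the 2 libraries of a genotype may be technical.

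Slc25a37 encodes mitoferrin 1, the carrier of the inner mitochondrial membrane that brings iron into the matrix. Iron imported this way is built into heme and iron-sulfur clusters, and developing red blood cells depend on it for hemoglobin. In blood progenitors, open chromatin at a gene of this kind is known to mark its promoter and the distant elements that blood transcription factors use.

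The window was selected on presence in these 4 libraries, because it held more regions found only in control than any other 1 Mb window of at least 50 union regions. Its counts of regions by genotype are therefore a description, and no test was made on them. With 2 libraries against 2, the smallest p that a two-sided exact permutation test can reach is 0.333. By share of regions only in control the window was in position 2 of 1103 such windows, at 16.5%, between a window of chromosome 9 at 16.7% and one of chromosome 3 at 15.9%. At the lower edge, the last region before the window and the first inside it were both held by all 4 libraries. At the upper edge, the last region inside was missing from KO 2 alone and the first one after it was held only by control.

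The lists held 240881 to 277531 summits per library, and no read counts, so the depth behind them is unknown. The KO lists covered less of the genome, 42.6 Mb and 44.4 Mb, against 52.9 Mb and 48.9 Mb for the controls, and KO 2 had the lowest share of strong summits, with 35.1% at a −log10 q of at least 5 against 40.5% to 46.8% in the other libraries. All 12 stem and progenitor marker genes had a peak within 1000 bp of their start in every library. Of the lists for other cells, 6 of 6 mature myeloid genes had such a peak in every library, as did 4 of 5 B cell genes, 1 to 3 of 5 T cell genes, 4 or 5 of 6 erythroblast genes and 3 or 4 of 5 genes of cells outside the blood, so the presence of a peak at a gene's start did not separate cell types here. The strength of these peaks differed between lists. The median −log10 p of a list, with no peak taken as 0, was 47.4 to 74.8 over the libraries for stem and progenitor genes and 0 to 19.1 for the other lists. A single gene of the other lists reached 213. The part of other cells in the results below was not tested. Cpt1a itself had 18 regions, of which 11 were in every library and 2 in control alone, and since the table used gives no exons, these peaks do not check the deletion.

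All 4 libraries held 69 of the 127 regions of the window (54.3%), against 58.4% of all union regions. Both controls and neither KO library held 21 (16.5%), where the background over all union regions was 6.05%. Both KO libraries and neither control held 2 (1.57%), against a background of 3.47%. Another 14 regions were missing from KO 2 alone (background 6.56%) and 6 from KO 1 alone (5533 of all 137553 union regions). From each control alone 1 was missing (3571 of all union regions for control 1 and 3786 for control 2). The last 13 were held by 1 control and 1 KO library (22266 of all union regions). Control 1 held 118 of the regions, control 2 held 117, KO 1 held 93 and KO 2 held 86. The 1 Mb below the window, with 30 regions, held 1 region only in KO and none only in control, and the 1 Mb above, with 146, held 8 and 7. Neither neighbour thus had a share only in control above the background of 6.05%, though the lower one has few regions to count.

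**Figure D1:**
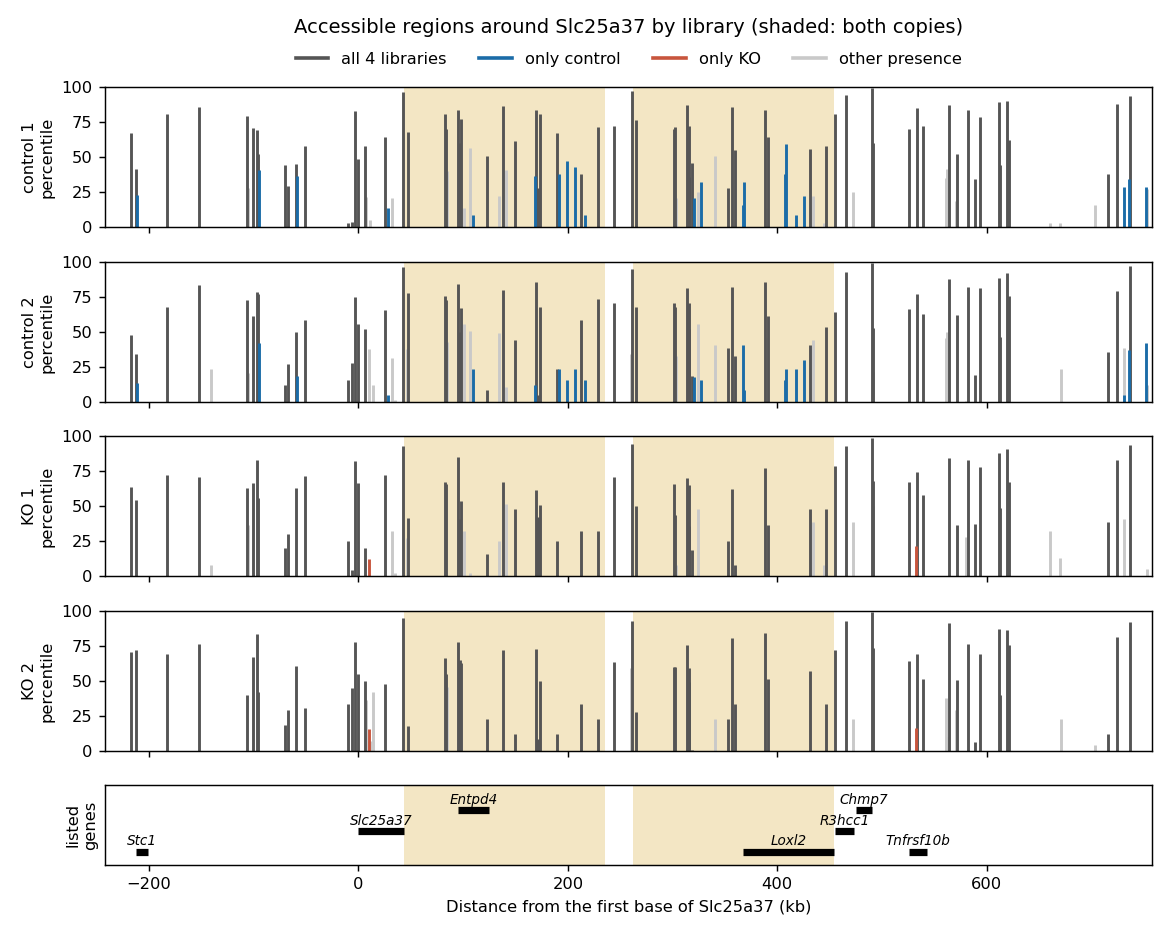
Height of each vertical line is the percentile of a union region within 1 library (100 is the strongest region that library holds), plotted by distance in kb from the first base of Slc25a37, with 1 panel per library, the listed genes in the bottom panel and the 2 repeated stretches shaded. Of the 21 regions only in control, 14 lie in the shaded stretches, and both regions only in KO lie outside them.

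Strength was compared only within a library, because the lists differ in length and scale. Each region was given the percentile of its strongest summit, by the authors' −log10 p, among all union regions that the library holds, with 100 the strongest. These percentiles move in steps, since weak summits share exact values: over the 8 lowest such values in each library, a step was 4.01 to 10.8 percentile points, and in these libraries 31.0% to 34.0% of regions had a −log10 p shared with at least 100 others. Of the 69 regions in all 4 libraries, 29 ranked higher in both controls than in both KO libraries (42.0%, background 25.4%), and 5 ranked higher in both KO libraries (7.25%, background 13.6%).

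Slc25a37 itself, whose body spans bases 69241848 to 69285544 (43.7 kb), had 15 regions, of which 6 were held by all 4 libraries, 1 only by control and 1 only by KO. The last 2 classes were 6.67% each, against backgrounds of 6.05% and 3.47%. Controls 1 and 2 each held 12 of the 15, KO 1 held 10 and KO 2 held 11. The share only in control at Slc25a37 was thus near the background, and it rests on a single region.

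The strongest region of Slc25a37 lay inside the upper end of the gene body, at bases 69284215 to 69285326. Its percentiles were 96.8 and 96.0 in control and 93.3 and 94.7 in KO. All 4 values were near the top of their library, with both controls slightly above both KO libraries. The authors' fold at its summit, which is signal over the background of the same library, was 15.7, 15.0, 14.9 and 16.9 in control 1, control 2, KO 1 and KO 2, and here the highest value was that of a KO library. This region has a counterpart elsewhere in the window, described below, so which of the places its values describe may be uncertain.

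A second strong region, at bases 69238105 to 69238727, lay below the gene within its flank. It ranked at 83.2 and 74.9 in control and 82.5 and 77.9 in KO, so the genotypes overlapped. The same held for the region across the lower end of the body, at bases 69241632 to 69241953 (49.2 and 55.4 in control, 67.0 and 55.0 in KO), and for the intragenic region at bases 69267173 to 69267819 (64.5 and 65.3 in control, 72.1 and 48.0 in KO). Groups did not overlap at the intragenic region at bases 69248171 to 69249042, which ranked at 58.2 and 52.2 in control and at 20.1 and 49.6 in KO.

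The largest difference at Slc25a37 stood in its upper flank, beyond the gene body, at bases 69288859 to 69289136. This region ranked at 68.1 and 78.0 in the controls, and at 41.7 and 17.7 in the KO libraries. Both KO values were well below both control values. The region also lies near Synb, which encodes the placental fusion protein syncytin-B, and inside a stretch of DNA that is repeated in the window.

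The region of Slc25a37 held only by control, at bases 69269718 to 69270023, was weak, with percentiles of 13.6 and 4.68, and the nearest KO peak was 1899 bp away. The region held only by KO, at bases 69251643 to 69251840, ranked at 12.4 and 15.4, and a control peak lay 231 bp from it. All 4 percentiles were near the low end of their library. The remaining 7 regions were held by 2 or 3 libraries of both genotypes.

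Slc25a37 was set beside 26 genes of iron import, heme synthesis and iron-sulfur cluster assembly, among them Slc25a28 (mitoferrin 2), Tfrc, the transferrin receptor, and Fech, which puts iron into the porphyrin ring. These genes had 110 regions, of which 77 were in all 4 libraries, 7 only in control (6.36%) and 2 only in KO (1.82%). The regions only in control were 2 at Slc25a28, 2 at Uros and 1 each at Abcb10, Fth1 and Aco1, and the regions only in KO were at Ftl1 and Aco1. The share only in control in the list was near the 6.05% of all regions. Alas2, the first enzyme of heme synthesis in red cells, had no union region. Among 1115 genes with a similar number of regions, the profile of presence over the 4 libraries was most like that of Slc25a37 at Atp2b1 and Cap1 (distance 0.05 each, on the shares of the gene's regions held by each library) and Cacna2d2 (0.06). Of their 12, 12 and 17 regions, 1, 2 and 2 were only in control, where the background was 6.05%. These genes were picked on the shares held by each library, which bear on that count, so it is no separate comparison.

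Next to Slc25a37 the gene models themselves repeat. Shifted by 218250 bp, the first base of Synb falls on that of LOC115488278, and both ends of Gm41197, Entpd4 and Gm21451 fall within 200 bp of those of Gm41194, Entpd4b and Loxl2. From these models the first copy spans bases 69285845 to 69477453 and the second bases 69504080 to 69695834, 192 kb each. The accessible regions repeat at the same distance: 38 regions of the window met another region when shifted by 218250 bp, whereas at shifts over 1000 bp away, between 100000 and 300000 bp, the median was 11 and the highest value 26. Of the 38, only 26 were regions of the first copy that met a region of the second. The split of the window into copies and the rest was made after its values were seen.

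**Figure D2:**
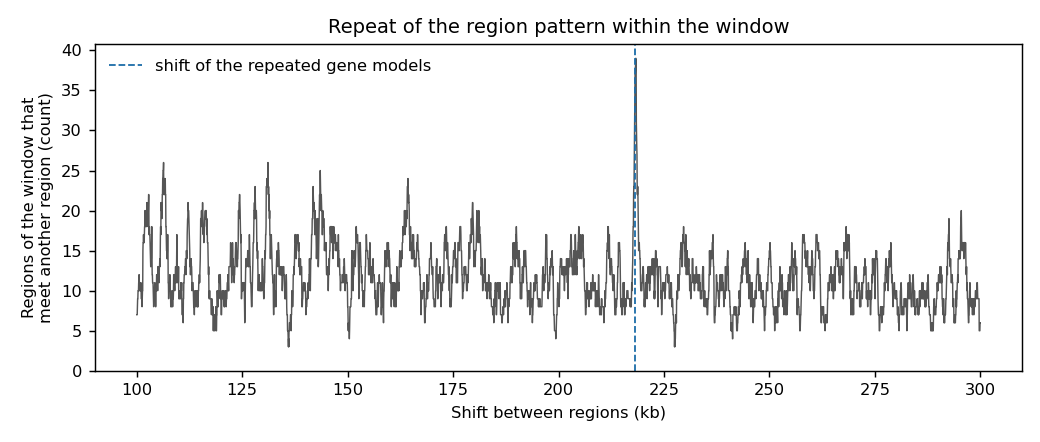
Number of union regions of the window (vertical axis) that meet another union region when moved by the shift on the horizontal axis (kb), with the distance between repeated gene models as a dashed line. The count stands highest at that distance, 39 at the best shift of the scan, against 26 at most elsewhere.

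The sequence of the copies was not compared here. Reads that align equally well to both copies cannot be assigned to either, and how the alignment treated them is not given in the sources used here. Values at Entpd4, Loxl2, the upper flank of Slc25a37 and their counterparts are therefore uncertain as to which copy they describe. The strongest region of Slc25a37 also met a counterpart at the shift, just outside the copies as drawn, and the same uncertainty may reach it.

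The copies held 57 of the 127 regions, 28 in the first and 29 in the second. They held 14 of the 21 regions only in control, 6 in the first copy and 8 in the second, which is 24.6% of the regions in the copies, and neither region only in KO. Outside the copies lay 7 regions only in control, 10.0% of 70, and both regions only in KO, 2.86%. A further 10 regions of the copies were missing from KO 2 alone (17.5%, background 6.56%), and 3 from KO 1 alone. None of the 57 was missing from a control alone. Such classes are small everywhere. Of all 137553 union regions, 5533 were missing from KO 1 alone, 3571 from control 1 alone and 3786 from control 2 alone.

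**Figure D3:**
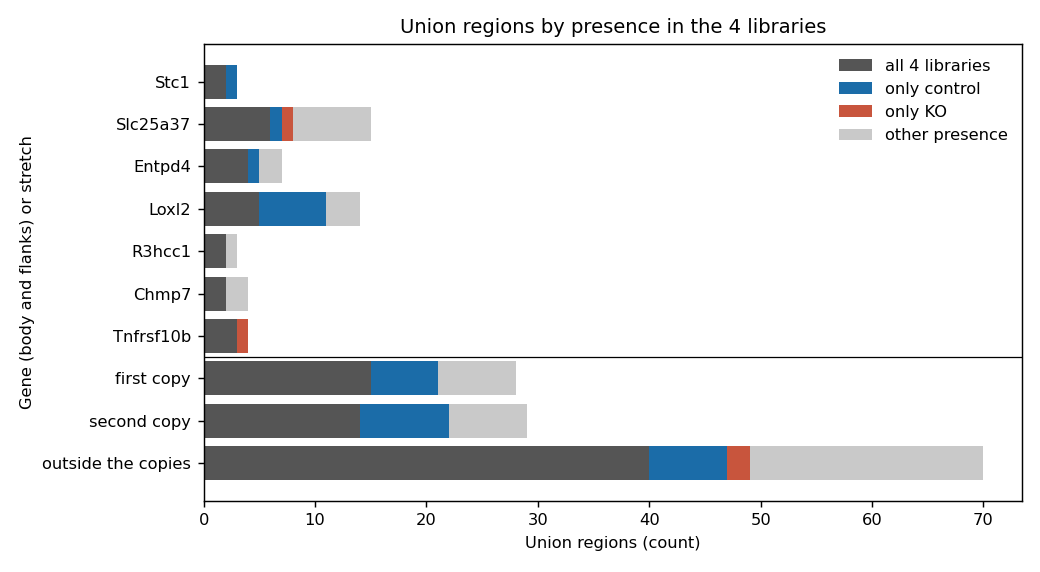
Counts of union regions (horizontal axis) by presence in the 4 libraries, for each listed gene with its flanks and, below the line, for the 2 repeated stretches and the rest of the window. Loxl2 has 6 regions only in control of 14, and Slc25a37 has 1 of 15, where the background over all union regions is 6.05%.

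The summits come from the same peak calls on which the window was selected, and are given as a description. Control 1 placed 96 summits in the copies, control 2 placed 98, KO 1 placed 59 and KO 2 placed 46. Per 100000 summits of each list these were 34.6 and 37.3 against 22.2 and 19.1. In the rest of the window the values were 55.5 and 57.2 per 100000 for control and 50.7 and 54.8 for KO, so the gap between the genotypes lay mostly in the copies. The first copy had 9.27 kb and 9.47 kb under peaks for control and 4.78 kb and 4.38 kb for KO, and the second copy 9.47 kb and 8.34 kb against 4.37 kb and 3.95 kb.

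Regions that all 4 libraries held were counted by percentile. In the copies, 18 of 29 ranked higher in both controls (62.1%) and 0 of 29 in both KO libraries, and outside them 11 of 40 (27.5%) and 5 of 40 (12.5%) did, near the backgrounds of 25.4% and 13.6%. The median percentile of these regions in the copies was 70.4 and 67.7 in control and 48.1 and 51.2 in KO. Outside the copies it was 70.9, 67.1, 69.5 and 69.0 in the same order. In the plot of percentiles of shared regions, nearly all points of the copies lie below the diagonal. The contrast was smaller when regions were ranked by the authors' fold instead of −log10 p. By fold, 12 of the 29 regions in the copies ranked higher in both controls and 0 in both KO libraries. Outside the copies, 10 of 40 ranked higher in both controls and 7 of 40 in both KO libraries. No background was worked out for the ranking by fold.

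**Figure D4:**
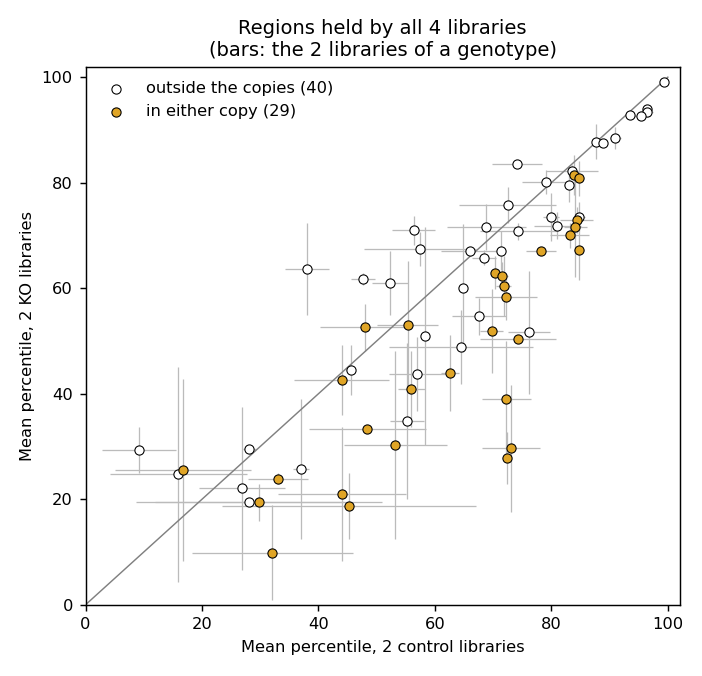
Mean percentile of each of the 69 regions held by all 4 libraries in the 2 KO libraries (vertical axis) against the 2 control libraries (horizontal axis), with bars that reach the value of each single library. Filled points are the 29 regions in either copy, open points the 40 outside, and the line marks equal percentiles.

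Exact ties were more frequent in the copies, where 74 of 185 values (40.0%) were shared with at least 100 other regions of the library, against 39 of 229 outside (17.0%). The weak values in the copies are thus known only to within a step.

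Only pairs with 1 region in each copy were compared. Of 29 such pairs that met at the shift, 17 had the same presence in the 4 libraries: 12 were held by all 4 in both copies and 3 only by control in both, and 5 pairs were only in control in 1 copy. In the 20 pairs with a single partner on each side, the median difference in percentile between the copies, over the pairs with a peak in both, was 14.3 in control 1, 9.91 in control 2, 14.5 in KO 1 and 8.44 in KO 2. Just outside the copies as drawn from the gene models, the strong Slc25a37 region at bases 69284215 to 69285326 also had a counterpart, at bases 69502369 to 69503571 in Gm16867, with percentiles of 97.5, 95.2, 94.4 and 92.5 in control 1, control 2, KO 1 and KO 2. The counterpart of the weaker Slc25a37 flank region, at bases 69507104 to 69507379, ranked at 76.5 and 68.1 in the controls and at 50.0 and 27.9 in the KO libraries.

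Entpd4, which encodes a nucleotide-cleaving enzyme of the Golgi and lysosome, had 7 regions, 4 in all 4 libraries, 1 only in control and 2 missing from KO 2. The region at the lower end of its body, at bases 69336927 to 69337659, ranked at 83.6 and 84.1 in the controls and at 85.2 and 77.7 in the KO libraries, with no order between the genotypes. The counterpart at Entpd4b, at bases 69555101 to 69555900, ranked at 87.2 and 81.5 in control and at 70.4 and 75.4 in KO, and there both controls were above both KO libraries. The region of Entpd4 only in control, at bases 69350979 to 69351178, ranked at 8.65 and 23.4, and its counterpart at Entpd4b, at bases 69569223 to 69569428, was also held only by control, at 32.5 and 15.5.

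The Entpd4b region holds the start sites of 2 genes that run in opposite directions, Entpd4b and LOC115488278. Their promoters are shown because they lie at this open region of the second copy. Whether the counterpart at Entpd4 has the same sequence was not examined. They are the RefSeq sequences of the GRCm38.p6 assembly, from 250 bases before the start to 50 bases after it, printed 5′ to 3′ on the strand of the gene with the 50 bases after the start in capitals.
Entpd4b (chr14:69555151-69555450, plus strand): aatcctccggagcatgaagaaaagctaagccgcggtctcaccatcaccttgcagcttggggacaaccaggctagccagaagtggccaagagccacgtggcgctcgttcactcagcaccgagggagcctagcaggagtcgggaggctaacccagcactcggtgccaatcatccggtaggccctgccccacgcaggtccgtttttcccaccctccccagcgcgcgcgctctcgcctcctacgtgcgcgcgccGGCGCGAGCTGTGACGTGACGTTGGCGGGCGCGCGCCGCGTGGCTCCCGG
LOC115488278 (chr14:69555368-69555667, minus strand): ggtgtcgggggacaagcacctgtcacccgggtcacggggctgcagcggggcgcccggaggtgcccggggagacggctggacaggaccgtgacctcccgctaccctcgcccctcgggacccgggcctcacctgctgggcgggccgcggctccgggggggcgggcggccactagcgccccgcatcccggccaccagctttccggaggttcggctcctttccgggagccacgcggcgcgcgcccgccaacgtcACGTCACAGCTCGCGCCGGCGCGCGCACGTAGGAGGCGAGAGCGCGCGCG
Both are rich in G and C, at 67.0% and 77.7%. Motifs were searched on both strands. The GATA motif was taken as AGATAA or with another first letter TGATAA, and also as the forms AGATAG and, likewise, TGATAG, the ETS motif as GGAAGT and the E-box as CAGNTG. The joint E-box and GATA motif overlaps in letters with the single motifs. The Entpd4b promoter held no match to any of these, and the LOC115488278 promoter shown held 2 E-boxes, starting at bases 17 and 127 of the printed sequence. LOC115488278 has further listed promoters outside this region. That at bases 69515566 to 69515865 held 3 GATA matches, and that at bases 69530609 to 69530908 held 1 E-box. The promoter at bases 69512236 to 69512535 held 1 GATA match, 2 ETS matches and 1 E-box. Of 32851 RefSeq promoters of this length, 29.8% held the GATA motif, 23.8% the ETS motif, 51.4% an E-box and 0.861% the joint motif.

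Loxl2, which encodes an enzyme that crosslinks collagen outside the cell, held the most regions only in control of the listed genes, 6 of 14. Another 5 were in all 4 libraries. Control 1 held all 14 regions, control 2 held 13, KO 1 held 8 and KO 2 held 5. The strongest region, at bases 69629411 to 69629902, ranked at 83.9 and 85.6 in control and at 77.5 and 84.2 in KO, so that the genotypes overlapped. Its counterpart in Gm21451, at bases 69411148 to 69411645, ranked at 83.9 and 85.6 in control and at 61.6 and 73.1 in KO, and there they did not.

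The 6 regions of Loxl2 only in control were weak to middling. The strongest of them in a single library was that at bases 69649751 to 69650063, at 59.3 in control 1 and 23.4 in control 2. Its neighbour at bases 69649421 to 69649570 ranked at 38.4 and 15.5. Both meet the same counterpart in Gm21451, the region at bases 69431128 to 69431812, and that region was held by all 4 libraries, at 67.0 and 23.4 in control and 25.0 and 12.5 in KO.

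The regions at bases 69609320 to 69609495 (16.3 and 40.3) and 69609681 to 69609996 (32.5 and 8.62) likewise meet a counterpart held by all 4 libraries, at bases 69390635 to 69391723. Presence only in control at 4 of the 6 Loxl2 regions therefore did not hold at the same place in the other copy. At the remaining 2, bases 69659314 to 69659517 (8.65 and 23.4) and 69666945 to 69667415 (22.6 and 30.1), the counterpart in Gm21451 was also held only by control.

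The listed genes outside the copies had few regions by genotype. Chmp7, a subunit of the ESCRT-III membrane-sealing machinery that helps reseal the nuclear envelope, held the strongest region of the window at one end of its body, at bases 69732001 to 69733050. Its percentiles were 99.5 and 99.3 in control and 98.9 and 99.3 in KO. Of the 4 regions of Chmp7, 2 were in all 4 libraries and none was held by a single genotype. The other shared region, at bases 69733438 to 69733852, ranked at 60.1 and 52.7 in control and 68.2 and 73.7 in KO, and was 1 of the 5 regions higher in both KO libraries.

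R3hcc1 had 3 regions, 2 of them in all 4 libraries, and none of a single genotype. Its strongest, within the body at bases 69706899 to 69707718, ranked at 94.3 and 92.8 in control and at 93.0 and 92.6 in KO. A region shared with the flank of Loxl2, at bases 69697140 to 69697577, ranked at 80.8 and 64.1 in control and 79.1 and 72.4 in KO, and a region shared with Chmp7 was missing from control 2. The genotypes overlapped at both regions that all 4 libraries held.

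Tnfrsf10b, which encodes the mouse death receptor for TRAIL, had 4 regions, 3 in all 4 libraries and 1 only in KO. The strongest, at bases 69774354 to 69775350, ranked at 85.0 and 77.0 in control and 74.4 and 69.3 in KO, without overlap. The region only in KO, at bases 69774141 to 69774303, ranked at 22.0 and 16.7 and lay 51 bp from a control peak. The region at the lower end of the body, at bases 69767311 to 69768535, ranked at 70.6 and 66.4 in control and at 67.3 and 64.3 in KO, where the genotypes overlapped. The third shared region, at bases 69780399 to 69780956, ranked at 72.2 and 63.0 in control and at 58.2 and 51.2 in KO, without overlap.

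Stc1, which encodes the secreted glycoprotein stanniocalcin 1, had 3 regions, 2 in all 4 libraries and 1 only in control. The stronger shared one, at bases 69024258 to 69024460, ranked at 67.0 and 47.8 in control and 64.2 and 70.6 in KO. The region across the lower end of the body, at bases 69029014 to 69029879, had the largest difference in favour of KO of all shared regions of the window, at 41.8 and 34.2 in control against 54.8 and 72.4 in KO. The region only in control lay just beyond it, at bases 69030022 to 69030264, at 22.8 and 13.8 and 391 bp from a KO peak.

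The remaining 12 regions only in control were at genes outside the list or in intergenic space. Gm21451, the counterpart of Loxl2, had 5 of 12 regions only in control, all of which also lie in the long gene model Gm16867. Entpd4b had 2 of 8, Pebp4 3 of 17 and the flank of Gm31632 had 1. Of the 12 intergenic regions 9 were in all 4 libraries and 1 was only in control.

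The 3 regions only in control with the highest lower percentile all lay outside the copies. They were the intergenic region at bases 69146971 to 69147116 (40.8 and 41.8, 247 bp from a KO peak), and the Pebp4 regions at bases 69977857 to 69978266 (34.7 and 37.0, 231 bp) and 69993061 to 69993690 (28.6 and 41.9, 575 bp). The next were tied at a lower percentile of 23.4, and were the regions starting at bases 69432851 and 69448779 in Gm21451 and that starting at base 69649751 in Loxl2. Among regions of all 4 libraries, the largest differences in favour of control were at bases 69470194 to 69470820 in Gm21451 (mean percentile 72.4 in control and 27.8 in KO), at the upper flank of Slc25a37 described above (73.1 and 29.7) and at the counterpart of the latter (72.3 and 39.0). In favour of KO they were at the Stc1 region (38.0 and 63.6), an intergenic region at bases 69231755 to 69231965 (9.17 and 29.3) and the second Chmp7 region (56.4 and 70.9).

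Regions only in control were weak peaks. Their median percentile was 32.5 in control 1 and 18.4 in control 2, above the 16.3 and 15.5 of regions only in control across the genome, while regions of the window in all 4 libraries had medians of 70.5, 67.7, 63.3 and 59.9 in control 1, control 2, KO 1 and KO 2. Of the 21, none reached a −log10 q of 5 in both controls and 2 did in 1 control, and 17 had a single summit in each control. The nearest KO peak was 73 to 16233 bp away (median 1899 bp), and within 500 bp for 6 of the 21. A further 130 regions of the window were in a single library, 43 and 27 in control and 24 and 36 in KO.

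When only the 100000 strongest summits of each library were kept, 54 regions remained in the window, with 4 that both controls alone held (7.41%, background 2.75%) and 2 that both KO libraries alone held (3.70%, background 3.11%). All 4 of the former were in the copies at this length. These counts rest on few libraries. Leaving out control 1, control 2, KO 1 or KO 2 gave 50, 64, 35 and 27 regions held by every remaining control and by no KO library, against 3, 3, 38 and 26 for the opposite pattern. A region held only by the 1 remaining library of a genotype was counted here, although union regions need at least 2 libraries. In the copies the same counts were 30, 28, 24 and 17 against 0, 0, 2 and 1. Over all regions they were 46122, 63662, 17407 and 14089 against 8951, 8645, 61122 and 60646. Across the genome, more regions were thus counted for the genotype left with 1 library. In the window this did not hold without KO 2 (27 against 26). In the copies more regions were only in control whichever library was left out.

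With the lists cut to the 240881 summits of the shortest, control alone held 22 of 119 regions, 16 of them in the copies, and KO alone held 2, against backgrounds of 4.76% and 3.90% at this length. In the plot by list length, the count in the copies stayed at 4 or fewer up to 175000 summits and rose to 8, 14 and 16 at 200000, 225000 and 240881. Over all regions the share only in control was 3.94%, 4.42% and 4.76% at these lengths.

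**Figure D5:**
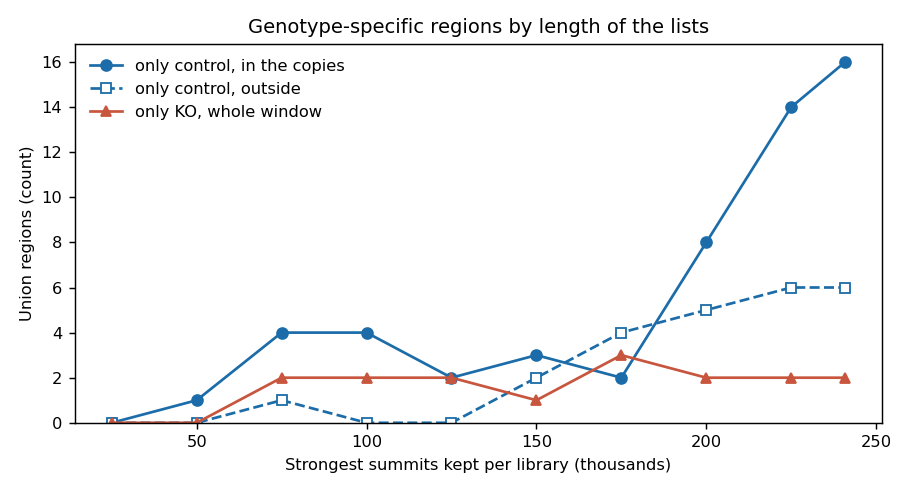
Number of union regions of the window held by a single genotype (vertical axis) when each list is cut to its strongest summits (horizontal axis, number kept per library in units of 1000), for regions only in control in the copies, only in control outside them and only in KO. Most regions only in control enter with the weakest summits of the lists, while the count only in KO stays between 0 and 3.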

How the data were processed

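ATAC-Seq peaks were analyzed for 2 control and 2 KO libraries of sorted mouse bone marrow cells. Per the submitters' processing notes, Bowtie2, MACS2 and the mm10 build were named, without versions or roles. Peaks were called by the authors in every library on its own, and the deposited lists give 1 row per summit, with a fold (the ratio of signal to the background of the same library), a −log10 p and a −log10 q. A display score in the deposited lists was not used. The lists hold no read counts, so depth is unknown and no counting interval was given. Summits written as a chromosome position rather than an offset (253 to 492 in a list) were read as positions.

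Intervals on the autosomes and X that overlapped by at least 1 bp were merged in Python 3.11.15 (pandas 2.3.3, numpy 2.4.6), and plots were drawn with matplotlib 3.10.9. Merging, presence and percentiles were tested on simulated data. Gene spans were taken from RefSeq on GRCm38.p6, in a table without strand or exons, so regions are described by gene body and flanks of 5000 bp. For marker genes the start came from the promoter table, or either end of the gene where no promoter was listed. The window, the genes and the lists were chosen with earlier results of these data known. The 7 listed genes were named with their strongest shared region and all regions of a single genotype, other genes where they held such a region, and besides these the 5 regions of each genotype with the highest lower percentile, the 3 shared regions with the largest difference in each direction and the 3 genes most like Slc25a37. Further shared regions of the listed genes and the repeated stretches were added after values were seen. No test was made on the window, since it was selected on the same libraries. Alternatives were a −log10 q of at least 5, the 100000 or 50000 strongest summits, lists cut to the shortest, presence only at a covered share of at least 0.5, windows of 200 bp on each side of summits, flanks of 1000 bp or none, ranking by fold, moving the window by 0.5 Mb and leaving out each library. Leaving out the regions of both copies was added after seeing the data.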

Additional observations from a re-analysis of the deposited data

How the results depend on the processing

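The window held 127 union regions, 21 only in control (1 of them at Slc25a37), 2 only in KO and 69 in all 4 libraries, of which 29 ranked higher in both controls and 5 in both KO libraries. Of 60 values under the alternatives other than leaving out a library, 29 stayed within 1.5 times of these counts and 31 did not, mostly where lists were shortened, which leaves fewer regions to count. With a −log10 q of at least 5 there were 57 union regions, 35 in all 4 libraries. Control alone held 6 (2 at Slc25a37), KO alone held 1, and 2 shared regions ranked higher in both KO libraries. Across the genome at this threshold, control alone held 4497 of 64025 union regions (7.02%) and KO alone held 517 (0.807%). The genome thus leaned further to control there than in the main setting, where these shares were 6.05% and 3.47%. With the 100000 strongest summits there were 54 union regions, 36 in all 4 libraries, 4 only in control, 16 that ranked higher in both controls and 2 that ranked higher in both KO libraries. With the 50000 strongest summits there were 24 union regions, 13 in all 4 libraries, 1 only in control (0 at Slc25a37), 0 only in KO, 4 that ranked higher in both controls and 0 that ranked higher in both KO libraries. Lists of equal length left 0 regions only in control at Slc25a37, and windows of 200 bp on each side of summits left 0 only in KO in the whole stretch. A covered share of at least 0.5 left 29 regions in all 4 libraries and 0 that ranked higher in both KO libraries. With that share, control alone held 22 of the 100 union regions of the window, against a background of 11.3%. KO alone held 3, against a background of 3.89%. Moving the window 0.5 Mb down gave 72 union regions, 42 in all 4 libraries, 10 held by control alone and 1 by KO alone. Moving it up gave 145 union regions, 81 in all 4 libraries, 14 held by control alone and 4 by KO alone. Without the regions of both copies, a setting chosen after seeing the data, there were 70 union regions, 40 in all 4 libraries, 7 only in control and 11 that ranked higher in both controls.

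When each library was left out in turn, union regions, still held by at least 2 libraries, numbered 101 to 119 and regions in all remaining libraries 71 to 83. Regions only in control numbered 27 to 64 (2 to 6 at Slc25a37) and regions only in KO 3 to 38. A single library then stands for a genotype, and regions held by that library alone were counted. These counts are therefore not shares of the union regions. Shared regions higher in the controls numbered 33 to 47 and those higher in KO 10 to 19. No paired analysis was possible because the result comes from no test. Depth is unknown, so weak peaks absent from a list may lie just under the threshold of that library, and presence cannot be read as a difference in accessibility at a single region.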
